A study of Mus musculus with 19 samples.

Results

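The 50 protein-coding genes examined here stand for the nuclear subunits of complexes II to V of the mitochondrial respiratory chain, with cytochrome c. They were chosen by symbol from the 55536 genes counted: Sdha, Sdhb, Sdhc, Sdhd, Cyc1 and Cycs, and every symbol that starts with Uqcr, with Atp5, or with Cox and a digit from 4 to 8. Complex II has 4 of them, complex III 9, cytochrome c 1, complex IV 18 and complex V 18. The rule also takes in Atp5s (coupling factor B) and Cox7a2l (a supercomplex factor), which are counted among the subunits here. A subunit with another symbol is not covered. The data are ribosomal RNA-depleted total RNA from mouse ventricle, in wild-type mice (WT) and in mice called MPC1CKO (KO) in the series' design text, whose knockout of Mpc1 was induced in the heart in adult life. WT-8 (5 libraries) and KO-8 (4) were taken 8 weeks after induction, and WT-16 (5) and KO-16 (5) after 16 weeks. The labels give no strain, age, Mpc1 allele, Cre driver or inducing agent, and do not say whether WT mice received the agent. They do not say whether each library is a separate animal either, so p-values measure the spread between libraries, which may be technical.

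Mpc1 encodes a subunit of the carrier that brings pyruvate into mitochondria, where it feeds the tricarboxylic acid cycle. Electrons from that cycle and from fatty acid oxidation enter the chain at complex I or complex II, pass through complex III, cytochrome c and complex IV to oxygen, and the proton gradient built on the way drives ATP synthesis by complex V. All subunits of complex II and cytochrome c are encoded in the nucleus, while complexes III, IV and V each also hold subunits from mitochondrial DNA. Cardiac muscle, which depends on oxidative phosphorylation, uses striated muscle isoforms of some complex IV subunits (Cox6a2, Cox7a1 and Cox8b) in place of the widely expressed ones (Cox6a1, Cox7a2 and Cox8a).

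Mpc1, the check of the labels, had 82.4, 75.1, 73.8, 77.02 and 63.7 CPM in WT-8 and 11.1, 11.99, 8.42 and 11.7 CPM in KO-8. At 16 weeks it had 61.7, 62.4, 73.7, 66.6 and 83.9 CPM in WT-16 and 26.2, 9.04, 9.26, 15.1 and 15.95 CPM in KO-16. Every KO library lay below every WT library of its time, and KO-16 replicate 1 kept the most Mpc1 among KO libraries. Library totals were 16528626 to 27516660 counted read pairs at 8 weeks and 8632127 to 26914074 at 16 weeks. The share of counts on 18S ribosomal RNA was at most 0.067% at 8 weeks, and at 16 weeks it ran from 6.88% to 39.1% (WT) and from 1.71% to 30.0% (KO), with the lowest share in KO-16 replicate 2. The 8 cardiomyocyte markers were Myh6, Myl2, Myl3, Actn2, Tnnt2, Tnni3, Mybpc3 and Ryr2. They summed to 26092 to 49374 CPM (counts scaled to a library size of 1000000, with TMM factors over all 19 libraries). The 7 skeletal muscle markers summed to at most 2.69 CPM. The 4 atrial markers (Myl7, Myl4, Sln and Bmp10) summed to at most 6.42 CPM at 8 weeks, to 1.01 to 220.4 CPM in WT-16 (highest in replicate 3) and to 1.73 to 517 CPM in KO-16 (highest in replicate 4). WT-16 replicate 3 also had 8.84 CPM of the adipocyte marker Adipoq and 9.53 CPM of the brown adipocyte marker Ucp1, against at most 0.23 and 0 CPM in the other WT-16 libraries. Sex-linked transcripts marked WT-16 replicate 5 and KO-16 replicate 4 as male and the other 17 libraries as female.

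The sequences shown are those just upstream of Cox6a1, Cox7a1, Cox7a2, Cox8a and Cox8b. These genes belong to the muscle isoform pairs on which the comparison of isoforms below turns. The sequences are read from RefSeq promoters (GRCm38.p6), which held 35 of the 49 symbols. Cox6a2, the muscle partner of Cox6a1, was not among them and is not shown. Each sequence runs from 250 bases before the RefSeq start to that start, or to the GENCODE gene start where it comes first. Capitals mark matches on either strand to TGCGCA (the core of sites of nuclear respiratory factor 1), to CCGGAAG (bound by ETS family factors), to AAGGTCA (bound by estrogen-related receptors), to CAGCTG (an E-box bound by myogenic factors) or to the TATA box letters TATAAA. Cox6a1 is at chr5:115348982-115349208 (minus strand), Cox7a1 at chr7:30183921-30184143 (plus strand), Cox7a2 at chr9:79759879-79760103 (minus strand), Cox8a at chr19:7217617-7217866 (minus strand) and Cox8b at chr7:140900447-140900696 (minus strand).
Cox6a1: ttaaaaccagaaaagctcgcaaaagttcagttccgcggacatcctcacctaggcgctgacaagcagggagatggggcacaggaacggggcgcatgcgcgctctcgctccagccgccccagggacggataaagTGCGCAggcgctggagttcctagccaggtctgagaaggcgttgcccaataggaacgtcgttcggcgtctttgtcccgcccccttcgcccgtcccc
Cox7a1: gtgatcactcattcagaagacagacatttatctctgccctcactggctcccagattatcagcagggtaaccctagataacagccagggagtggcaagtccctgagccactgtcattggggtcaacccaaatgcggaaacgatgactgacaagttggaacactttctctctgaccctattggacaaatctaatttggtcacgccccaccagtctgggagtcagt
Cox7a2: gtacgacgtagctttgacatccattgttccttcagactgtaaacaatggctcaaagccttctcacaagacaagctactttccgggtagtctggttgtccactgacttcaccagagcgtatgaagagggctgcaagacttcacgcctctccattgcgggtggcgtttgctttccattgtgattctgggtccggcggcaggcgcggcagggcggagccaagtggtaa
Cox8a: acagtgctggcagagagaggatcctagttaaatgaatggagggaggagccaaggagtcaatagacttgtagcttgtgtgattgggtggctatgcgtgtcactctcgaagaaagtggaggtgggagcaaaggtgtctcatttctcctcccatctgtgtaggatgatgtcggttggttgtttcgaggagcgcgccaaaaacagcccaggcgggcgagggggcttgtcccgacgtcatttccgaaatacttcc
Cox8b: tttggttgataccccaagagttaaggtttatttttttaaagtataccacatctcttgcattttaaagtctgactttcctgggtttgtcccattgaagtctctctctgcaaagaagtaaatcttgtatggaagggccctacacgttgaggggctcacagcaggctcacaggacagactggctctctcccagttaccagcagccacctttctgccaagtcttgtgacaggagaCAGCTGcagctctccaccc
In these stretches Cox6a1 held 1 match to TGCGCA and Cox8b 1 match to CAGCTG, and no letters of these motifs were found in the other 3. Over the full 250 bases, 6 of the 35 genes (17.1%) held TGCGCA, against 7.36% of 27025 genes with a promoter entry. They were Atp5g2, Atp5l, Cox5b, Cox6a1, Sdha and Sdhd. CCGGAAG was found in 9 of 35 (25.7%, against 7.83% of all), namely Atp5e, Atp5h, Atp5j, Atp5l, Cox6a1, Cox6b1, Sdhd, Uqcr11 and Uqcrh. For AAGGTCA the count was 2 of 35, Atp5g3 and Atp5l (5.71%, against 4.70% of all). CAGCTG was found in Atp5b and Cox8b (5.71%, against 14.7% of all), and the TATA box letters in Atp5l and Cox7b2 (5.71%, against 14.3%). A longer form of the first motif and a MEF2 site were searched first and are not shown, so these letters were set after matches had been seen. A match describes the letters and does not show binding.

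Levels of the subunit mRNAs spanned a wide range in wild-type ventricle. Per kilobase of counted exon, Cox6a2 was highest in WT-8 at 823 CPM per kb, followed by Atp5a1 (751) and Atp5b (598), the alpha and beta subunits of the catalytic head of complex V, and by Cox7a1 (546). Lowest were Atp5s (4.65), Cox4i2 (4.22) and Atp5l (2.72). Counted exon joins all annotated exons of a gene and can be far longer than a single transcript. For Atp5b it was 4237 bases against a transcript of 1916, for Atp5l 6443 against 544, and for Cox6a2 680 for both. The order therefore depends on the length used. Cox6a2, Atp5a1 and Cox7a1 were also among the highest 4 per kb in KO-8, WT-16 and KO-16. Cox6b2, Cox7b2 and Cox8c, whose known expression is largely in testis, reached 10, 5 and 0 counts at most, and a second Atp5o locus (ENSMUSG00000116933) reached 1. These 4 were not tested, which leaves 46 subunits tested at each time. Read pairs that map to several places were not counted, so that members with near-identical pseudogenes can be undercounted. Atp5l, Atp5k, Atp5c1, Cox6c and Uqcrh may be among them. Symbols of these families are also carried by 8 genes that are not protein-coding.

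At 8 weeks none of the subunits tested differed between KO and WT past the threshold. The log2 fold changes of the 46 tested genes lay between -0.20 (Atp5l) and 0.16 (Atp5d), with a median of -0.02, against 0.00 over all genes tested. The median was 0.02 without KO-8 replicate 4 and also in a fit with the 18S share as a term. All 95% intervals lay within -0.40 to 0.31. Of the 46, 0 passed an adjusted p of 0.05 (edgeR quasi-likelihood test, Benjamini-Hochberg), where 8.21% of the 15173 genes tested did. An unadjusted p under 0.05 was found for 4 of the 46 and for 3524 of the 15173 genes. DESeq2 and limma-voom also called 0, as did a fit to all 19 libraries, where 0.2% of genes passed. On the scale of the 8-week fit the groups did not overlap for 1 subunit, Uqcrc2 (higher in KO-8), against 10.8% of all genes without overlap. On the printed CPM scale the lowest KO-8 and the highest WT-8 library of Uqcrc2 were level.

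At 16 weeks 0 of 46 passed, where 2.83% of 12597 genes did. An unadjusted p under 0.05 was found for 8 of the 46 and for 3198 of the 12597 genes. The spread between libraries was larger: log2 fold changes ran from -0.66 (Atp5l) to 0.66 (Atp5g1) around a median of -0.01, and the intervals from -1.19 to 1.41. The sign of that median was not stable. It was -0.14, with 14 of 46 subunits above 0, among the libraries with over 20% 18S (an alternative chosen after the data were seen) and -0.13, with 16 above 0, in a fit with the 18S share as a term. With a library left out it ran from -0.087 (without KO-16 replicate 2) to 0.070 (without WT-16 replicate 3). KO-16 and WT-16 overlapped for every subunit, against 4.67% of all genes without overlap. The count depended on the fit. With all 19 libraries in one fit, which lends the smaller 8-week spread to the 16-week libraries, 2 subunits were higher (Atp5g1 and Cox8a) and 6 lower (Sdha, Atp5j, Atp5c1, Atp5l, Cox6c and Cox4i1), where 11.2% and 9.33% of 15503 genes were called higher and lower. DESeq2 called 2 lower, Sdha (adjusted p = 0.024) and Atp5j (0.0286), with 4.29% of genes called lower, and limma-voom 0. Limma-voom with quality weights called 7 lower, with 10.5% of genes called lower. Leaving out KO-16 replicate 1 gave 5 lower (6.28% of genes), and leaving out replicate 5 gave 3 higher (7.7%) and 2 lower (6.48%). Among the libraries with over 20% 18S alone 0 passed, with 1.94% of genes called. Leaving out KO-16 replicate 2, 3 or 4, or any 1 of the WT-16 libraries, also gave 0 subunits, with 29 to 214 genes called. Without KO-16 replicate 1 the genes called numbered 1702, and without replicate 5 they numbered 1856, against 356 in the reported fit.

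**Figure D1:**
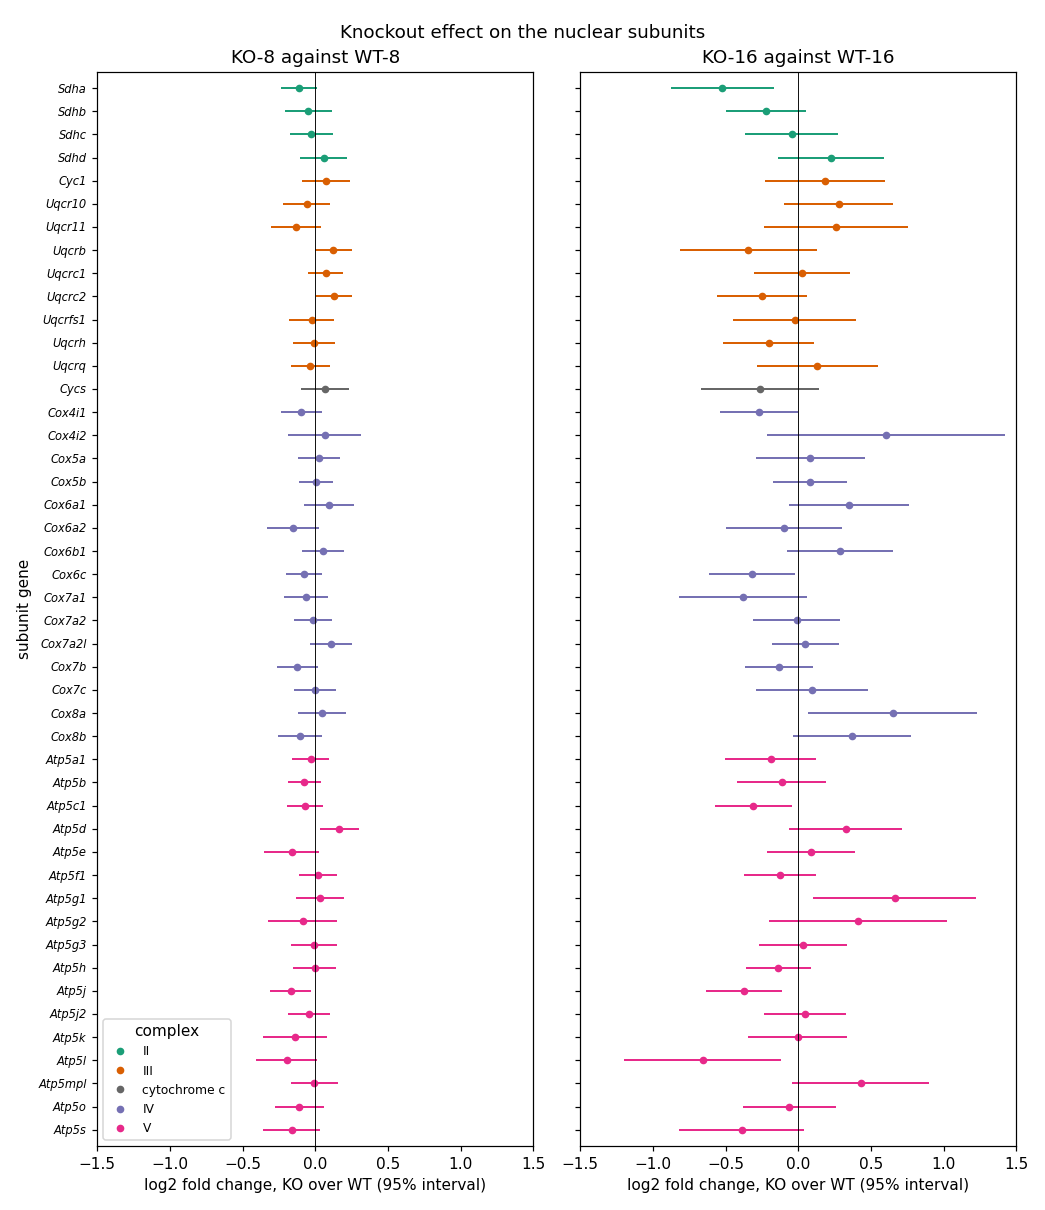
Log2 fold change of KO over WT (x axis) with its 95% interval for the 46 subunit genes tested (y axis), coloured by complex, at 8 weeks (left) and 16 weeks (right). All 8-week intervals lie within -0.40 to 0.31, while those at 16 weeks reach from -1.19 to 1.41.

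Complex II, succinate dehydrogenase, oxidises succinate to fumarate in the tricarboxylic acid cycle and passes the electrons to ubiquinone. Its 4 mRNAs did not change past the threshold at either time, with median log2 fold changes of -0.04 at 8 and -0.13 at 16 weeks. Sdha (ENSMUSG00000021577, GRCm38 chromosome 13, 74322254 to 74350280, minus strand), the flavoprotein that holds the catalytic site, had 909.7, 836, 858, 913 and 881 CPM in WT-8 and 880.0, 808, 753 and 797 CPM in KO-8. Its log2 fold change at 8 weeks was -0.11 (adjusted p = 0.254, SE 0.055). At 16 weeks Sdha had 905, 882, 861, 757 and 934 CPM in WT-16 and 848, 484, 485, 532 and 662 CPM in KO-16. In KO-16, 4 of 5 libraries lay below all WT-16 libraries, and replicate 1 lay among them. The log2 fold change was -0.52 (adjusted p = 0.0788, SE 0.16), with a 95% interval of -0.87 to -0.18. Without KO-16 replicate 1 it was -0.68 (adjusted p = 0.0058) and without KO-16 replicate 5 -0.56 (adjusted p = 0.0463). Among libraries with over 20% 18S alone (4 WT-16, 2 KO-16) it was -0.53 (adjusted p = 0.128), and in a fit with that share as a term -0.47 (adjusted p = 0.202). Of the 27 fits run at 16 weeks (the reported fit and its alternatives), 6 called Sdha lower.

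The other subunits of complex II were closer between groups. Sdhb, the iron-sulfur subunit, had 338, 331, 316, 327 and 281 CPM in WT-8 and 329.9, 328, 298 and 268 CPM in KO-8. At 16 weeks Sdhb had 218, 204, 238, 225 and 229 CPM in WT-16 and 236, 209, 153, 185 and 168 CPM in KO-16. KO and WT overlapped at both times, with a log2 fold change equal to -0.22 (adjusted p = 0.283, SE 0.13) at 16 weeks. Sdhc, a membrane anchor, had 156, 144, 138, 147 and 129 CPM in WT-8 and 156, 137, 131 and 132 CPM in KO-8. At 16 weeks Sdhc had 85.7, 83.5, 98.6, 87.3 and 74.7 CPM in WT-16 and 111, 93.9, 69.2, 70.6 and 69.8 CPM in KO-16. Its KO-16 range enclosed the WT-16 range, with a log2 fold change equal to -0.05 (adjusted p = 0.867, SE 0.15). Sdhd, the second anchor, had 185, 163, 162, 170.3 and 144 CPM in WT-8 and 187, 176, 167 and 152 CPM in KO-8. At 16 weeks Sdhd had 57.4, 74.1, 92.6, 72.4 and 65.5 CPM in WT-16 and 91.4, 109, 75.3, 87.95 and 58.3 CPM in KO-16. The log2 fold changes of Sdhd were 0.06 at 8 weeks and, at 16 weeks, 0.22 (adjusted p = 0.408, SE 0.17), and the groups overlapped. The 4 mRNAs together took 1505 ± 64.4 CPM in WT-8 (SD, n = 5), 1425 ± 97.1 in KO-8 (n = 4), 1249 ± 64.4 in WT-16 (n = 5) and 960.1 ± 194 in KO-16 (n = 5). Since this is bulk ventricular tissue, fewer cells of a type and less RNA per cell cannot be told apart.

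Complex III takes electrons from ubiquinol to cytochrome c. None of its 9 subunits passed the threshold, and the medians were -0.01 at 8 and 0.02 at 16 weeks. Their summed level was 2271 ± 101 CPM in WT-8, 2335 ± 142 in KO-8, 1869 ± 122 in WT-16 and 1663 ± 231 in KO-16, each with its SD. Cyc1, the cytochrome c1 subunit, had 225, 205, 198, 203 and 178 CPM in WT-8 and 232, 228, 192 and 191 CPM in KO-8. At 16 weeks Cyc1 had 62.5, 53.7, 66.6, 59.95 and 58.9 CPM in WT-16 and 75.2, 97.2, 64.6, 65.1 and 38.1 CPM in KO-16. KO-16 replicate 2 was the highest and replicate 5 the lowest of the 10 libraries, and the log2 fold change was 0.18 (adjusted p = 0.555, SE 0.19). Uqcrc2 (ENSMUSG00000030884, GRCm38 chromosome 7, 120635176 to 120659524, plus strand), a core subunit, had 514, 494, 511, 515 and 487 CPM in WT-8 and 599, 537, 537 and 515 CPM in KO-8. At 16 weeks Uqcrc2 had 546, 527, 565, 578 and 656 CPM in WT-16 and 585, 449, 348, 539 and 481 CPM in KO-16. Its log2 fold change at 8 weeks was 0.13 (adjusted p = 0.165, SE 0.054), and the value at 16 weeks had the other sign, -0.25 (adjusted p = 0.274, SE 0.14). The difference of these effects was -0.38 with an unadjusted p of 0.0261 and an adjusted p of 0.345.

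Uqcrb, a small subunit near the ubiquinone site, had 211, 201, 214, 202 and 188 CPM in WT-8 and 232, 202, 229.8 and 216 CPM in KO-8. At 16 weeks Uqcrb had 451, 549.6, 381, 591 and 674 CPM in WT-16 and 467, 283, 279.9, 458 and 592 CPM in KO-16. Its mean was 2.61-fold higher in WT-16 than in WT-8, the largest such ratio among the subunits, and the KO effect was 0.12 (adjusted p = 0.206, SE 0.057) at 8 and -0.34 (adjusted p = 0.331, SE 0.22) at 16 weeks. Uqcr10 had 91.3, 83.2, 75.6, 80.2 and 75.04 CPM in WT-8 and 80.3, 80.8, 81.1 and 66.8 CPM in KO-8. At 16 weeks Uqcr10 had 32.4, 32.9, 43.1, 34.8 and 35.2 CPM in WT-16 and 45.2, 61.4, 38.9, 40.9 and 28.6 CPM in KO-16. Uqcr10 and Uqcr11 are small supernumerary subunits, and both overlapped between groups. Uqcr11 had 155, 146, 128, 149.9 and 130.1 CPM in WT-8 and 144, 134, 121 and 114 CPM in KO-8. At 16 weeks Uqcr11 had 34.9, 33.3, 47.2, 30.1 and 28.1 CPM in WT-16 and 55.997, 59.3, 34.4, 32.1 and 24.9 CPM in KO-16. KO-16 replicates 1 and 2 were the highest 16-week libraries for both. The log2 fold changes at 16 weeks were 0.28 (adjusted p = 0.324, SE 0.17) for Uqcr10 and 0.26 (adjusted p = 0.49, SE 0.23) for Uqcr11. The 4 remaining subunits, the core subunit Uqcrc1, the Rieske iron-sulfur protein Uqcrfs1, the hinge protein Uqcrh and Uqcrq, had log2 fold changes of 0.02, -0.03, -0.20 and 0.13 at 16 weeks.

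Cytochrome c carries electrons from complex III to complex IV. Cycs (ENSMUSG00000063694, GRCm38 chromosome 6, 50562563 to 50566538, minus strand), its somatic gene, had 155, 137, 143, 148 and 138 CPM in WT-8 and 177, 141, 152 and 131 CPM in KO-8. At 16 weeks Cycs had 174, 127, 158, 173 and 186 CPM in WT-16 and 167, 138, 75.4, 158 and 142 CPM in KO-16. KO-16 replicate 3 was well below all other libraries, and the remaining 4 KO-16 libraries lay within the WT-16 range. The log2 fold change was 0.07 (adjusted p = 0.638, SE 0.074) at 8 and -0.26 (adjusted p = 0.385, SE 0.19) at 16 weeks.

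Complex IV, cytochrome c oxidase, reduces oxygen. Of its 18 genes 15 were tested, 0 passed at either time, and the medians were -0.00 at 8 and 0.08 at 16 weeks. The sum over the complex was 3348 ± 173 CPM in WT-8 and 3189 ± 133 in KO-8 (SD), and 2859 ± 109.9 in WT-16 and 2601 ± 329 in KO-16. Cox4i1, the main isoform of the largest nuclear subunit, had 600.0, 552, 531, 585 and 526.3 CPM in WT-8 and 567, 536, 489 and 486 CPM in KO-8. At 16 weeks Cox4i1 had 444, 409, 487, 423 and 455 CPM in WT-16 and 453, 355, 308, 349.7 and 367 CPM in KO-16. As for Sdha, 4 KO-16 libraries were below all WT-16 libraries and replicate 1 was among them. The log2 fold change was -0.27 (adjusted p = 0.181, SE 0.12). Cox6c (ENSMUSG00000014313, GRCm38 chromosome 15, 35925886 to 35938246, minus strand) encodes a small membrane subunit and had 409, 385, 407, 416 and 405 CPM in WT-8 and 399, 348, 370.2 and 405 CPM in KO-8. At 16 weeks Cox6c had 661, 684, 687, 646 and 678 CPM in WT-16 and 701, 444, 474, 482 and 581 CPM in KO-16. Replicate 1 of KO-16 was the highest of the 10 libraries and the other 4 were the lowest, with a log2 fold change equal to -0.32 (adjusted p = 0.16, SE 0.13) over all 5. Without replicate 1 it was -0.43 (adjusted p = 0.0278). Cox6c was called lower in 4 of the 27 fits at 16 weeks.

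Cox7b, which has a role in assembly of the complex, had 287, 261, 268, 275 and 251 CPM in WT-8 and 257, 253, 253 and 215 CPM in KO-8. At 16 weeks Cox7b had 177, 219.8, 209, 195 and 214 CPM in WT-16 and 203, 183, 189, 182 and 162 CPM in KO-16. KO-8 replicate 4 was lowest at 8 weeks, and the groups overlapped at both times, with log2 fold changes of -0.12 (adjusted p = 0.258, SE 0.063) and -0.14 (adjusted p = 0.432, SE 0.11). Cox7a2l, which links complexes III and IV in supercomplexes, had 88.1, 81.1, 84.7, 80.95 and 74.2 CPM in WT-8 and 88.9, 79.99, 96.6 and 85.3 CPM in KO-8. At 16 weeks Cox7a2l had 119.9, 142, 128, 129 and 141 CPM in WT-16 and 139, 119, 137, 153 and 131 CPM in KO-16. The groups overlapped, with log2 fold changes of 0.11 (adjusted p = 0.326, SE 0.064) and 0.05 (adjusted p = 0.805, SE 0.10). Cox5a, Cox5b, Cox6b1 and Cox7c had log2 fold changes from -0.00 (Cox7c) to 0.05 (Cox6b1) at 8 weeks and from 0.08 (Cox5b) to 0.29 (Cox6b1) at 16 weeks.

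The muscle isoforms of complex IV had more counts than their partners in every library. Per kb of counted exon the WT-8 ratio of group means was 24.1 for Cox6a2 to Cox6a1, 4.81 for Cox7a1 to Cox7a2 and 8.31 for Cox8b to Cox8a. Cox6a2 (ENSMUSG00000030785, GRCm38 chromosome 7, 128205435 to 128206387, minus strand) had 593, 549, 524, 626 and 507 CPM in WT-8 and 516, 498, 422 and 561 CPM in KO-8. At 16 weeks Cox6a2 had 445, 521, 501, 473 and 421 CPM in WT-16 and 604, 411, 543, 351 and 287 CPM in KO-16. KO and WT overlapped at both times. Its partner Cox6a1 had 26.6, 23.6, 20.2, 26.6 and 23.03 CPM in WT-8 and 26.6, 26.1, 23.02 and 26.2 CPM in KO-8. At 16 weeks Cox6a1 had 8.35, 10.8, 10.8, 10.99 and 11.04 CPM in WT-16 and 13.5, 17.8, 15.001, 10.3 and 8.64 CPM in KO-16. The ratio of Cox6a2 to Cox6a1 counts was 22.3, 23.2, 25.98, 23.6 and 22.01 in WT-8 and 19.4, 19.1, 18.3 and 21.5 in KO-8. All 4 KO-8 ratios lay below all 5 WT-8 ratios, with geometric means of 19.5 and 23.4. The difference of the mean log2 ratios was -0.26 (2-sided exact permutation test p = 0.0159, the smallest this design allows, adjusted p = 0.0952 over 8 tests). At 16 weeks the ratio was 53.3, 48.02, 46.3, 43.03 and 38.1 in WT-16 and 44.8, 23.2, 36.2, 34.2 and 33.2 in KO-16. Of the KO-16 ratios 4 lay below all WT-16 ratios, and that of replicate 1 did not. The difference was -0.44 (exact permutation p = 0.0238, adjusted p = 0.0952), so that neither passed after adjustment. It was -0.43 among libraries with over 20% 18S alone, where the smallest possible p is 0.133, and -0.30 to -0.54 with a library left out.

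For the other pairs no difference in ratio passed either. Cox8b had 215, 195, 181, 192 and 175 CPM in WT-8 and 177, 197, 167 and 165 CPM in KO-8. At 16 weeks Cox8b had 30.4, 37.6, 48.8, 38.5 and 36.8 CPM in WT-16 and 50.2, 62.97, 60.4, 43.5 and 30.1 CPM in KO-16. Cox8a, the widely expressed partner, had 45.99, 40.3, 39.5, 38.5 and 33.9 CPM in WT-8 and 41.2, 42.2, 41.2 and 38.1 CPM in KO-8. At 16 weeks Cox8a had 15.9, 11.6, 17.7, 12.2 and 9.20 CPM in WT-16 and 17.6, 36.6, 19.9, 17.7 and 11.97 CPM in KO-16. KO-16 replicate 2, with the lowest 18S share, was the highest 16-week library for both genes and far above the rest for Cox8a. The log2 fold change at 16 weeks was 0.37 (adjusted p = 0.23, SE 0.19) for Cox8b and 0.65 (adjusted p = 0.153, SE 0.27) for Cox8a. The ratio of Cox8b to Cox8a counts was 4.67, 4.85, 4.58, 4.99 and 5.15 in WT-8 and 4.30, 4.68, 4.06 and 4.33 in KO-8. At 16 weeks the ratio was 1.90, 3.25, 2.76, 3.16 and 4 in WT-16 and 2.85, 1.72, 3.04, 2.46 and 2.51 in KO-16. Of the KO-8 ratios 3 were below the WT-8 range and 1 within it, a log2 difference of -0.16 (exact permutation p = 0.0476, adjusted p = 0.127), and at 16 weeks the groups overlapped widely, -0.25 (adjusted p = 0.345, exact permutation).

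Cox7a1 (ENSMUSG00000074218, GRCm38 chromosome 7, 30184144 to 30186078, plus strand) had 306, 309.7, 304, 283 and 258 CPM in WT-8 and 306, 253, 285 and 269 CPM in KO-8. At 16 weeks Cox7a1 had 318, 276, 291, 384 and 344 CPM in WT-16 and 347, 224, 141, 222 and 303 CPM in KO-16. KO-16 replicates 2, 3 and 4 lay below WT-16 and replicates 1 and 5 among it, with a log2 fold change equal to -0.38 (adjusted p = 0.25, SE 0.20). Cox7a2 had 118, 104, 105, 109 and 101 CPM in WT-8 and 114, 104, 106 and 97.4 CPM in KO-8. At 16 weeks Cox7a2 had 60.7, 62.2, 81.9, 63.95 and 65.8 CPM in WT-16 and 66.9, 81.98, 67.2, 64.99 and 49.5 CPM in KO-16. Its log2 fold change was near 0 at both times, -0.01 and -0.01, with a 95% interval of -0.31 to 0.28 at 16 weeks. The ratio of Cox7a1 to Cox7a2 counts differed by -0.05 at 8 weeks and -0.41 at 16 weeks (log2, adjusted p = 0.476 and 0.339, exact permutation), and by -0.18 at 16 weeks among libraries with over 20% 18S alone. Its geometric means were 2.72 in WT-8, 2.64 in KO-8, 4.82 in WT-16 and 3.62 in KO-16.

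Cox4i2, the isoform best known from lung and from cells that sense oxygen, was a minor transcript here. It had 3.44, 3.86, 3.14, 2.93 and 3.27 CPM in WT-8 and 3.44, 3.10, 3.87 and 3.40 CPM in KO-8. At 16 weeks Cox4i2 had 1.26, 1.08, 1.47, 2.17 and 2.30 CPM in WT-16 and 2.03, 3.13, 4.07, 0.977 and 1.66 CPM in KO-16. Per kb of counted exon it reached 4.22 CPM in WT-8 against 361 for Cox4i1. KO-16 replicates 2 and 3 were the highest at 16 weeks, and the log2 ratio to Cox4i1 differed by 0.70 (exact permutation, adjusted p = 0.339). It was -0.072 among libraries with over 20% 18S alone and 0.40 without KO-16 replicate 3. Between WT-8 and WT-16 the ratios themselves differed: Cox6a2 to Cox6a1 had geometric means of 23.4 and 45.5, and Cox8b to Cox8a 4.84 and 2.93. Time and sequencing run cannot be told apart there.

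**Figure D2:**
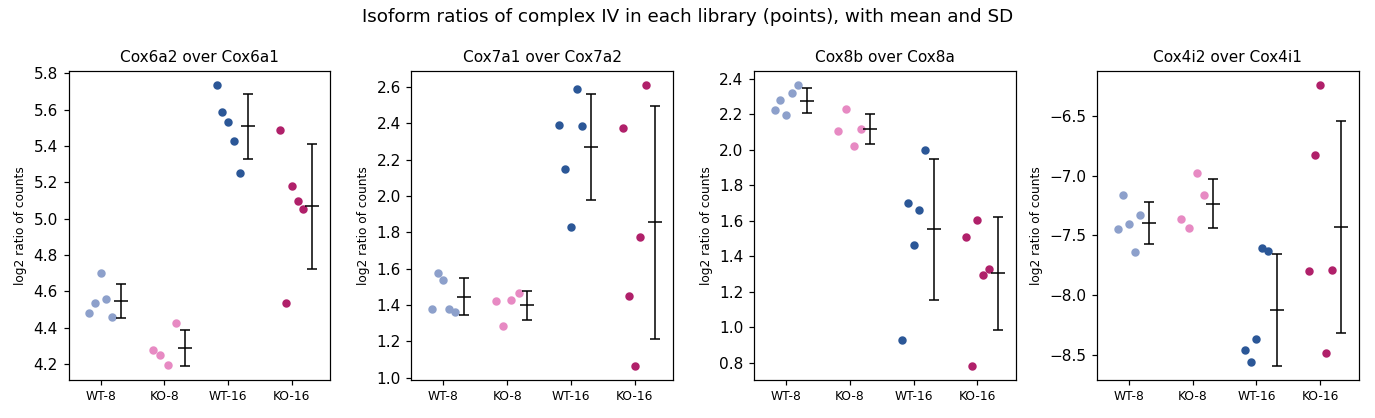
Log2 ratio of the counts of 2 isoforms (y axis) in each library (points) of the 4 groups (x axis), with the mean and SD in black, for 4 pairs of complex IV genes. The Cox6a2 to Cox6a1 ratio of all 4 KO-8 libraries lies below that of all 5 WT-8 libraries.

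Complex V, ATP synthase, couples proton flow through its membrane part to ATP synthesis in its head. None of 17 tested subunits passed, and the medians were -0.07 at 8 and -0.06 at 16 weeks. The sum over the complex was 7699 ± 348 CPM in WT-8 and 7411 ± 351 in KO-8 (SD), and 5181 ± 343 in WT-16 and 4696 ± 624 in KO-16. The medians of its parts at 16 weeks, which were not tested against each other, were as follows: the head (Atp5a1 and Atp5b) -0.15, the rest of the F1 part (Atp5c1, Atp5d and Atp5e) 0.09 with 2 above and 1 below 0, the peripheral stalk (Atp5f1, Atp5h, Atp5j and Atp5o) -0.13 with all 4 below 0, the accessory membrane subunits (Atp5j2, Atp5k, Atp5l and Atp5mpl) 0.02 with 2 above and 2 below, and the proton-carrying c ring (Atp5g1, Atp5g2 and Atp5g3) 0.41 with all 3 above 0. Among libraries with over 20% 18S, Atp5g2 and Atp5g3 were below 0 (-0.34 and -0.17), and in the fit with that share as a term Atp5g3 was (-0.11). At 8 weeks the medians were -0.05, -0.07, -0.06, -0.09 and -0.01 in the same order. Atp5j (ENSMUSG00000022890, GRCm38 chromosome 16, 84827866 to 84835625, minus strand), of the peripheral stalk, had 165, 149.7, 161, 156 and 156 CPM in WT-8 and 158, 139, 134 and 126 CPM in KO-8. At 16 weeks Atp5j had 137, 112, 124, 117 and 113 CPM in WT-16 and 112, 96.4, 76.1, 89.8 and 87.9 CPM in KO-16. Of the KO-16 libraries 4 lay below all WT-16 libraries, and replicate 1 was level with the lowest of them. The log2 fold change was -0.17 (adjusted p = 0.116, SE 0.062) at 8 and -0.38 (adjusted p = 0.083, SE 0.12) at 16 weeks. Without KO-8 replicate 1 the 8-week value was -0.23 (adjusted p = 0.028), and without KO-16 replicate 1 the 16-week value was -0.46 (adjusted p = 0.0206). Among libraries with over 20% 18S it was -0.41 (adjusted p = 0.193). Atp5j was called lower in 1 of the 21 fits at 8 weeks and in 5 of the 27 at 16 weeks.

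Atp5c1, the gamma subunit of the rotating central stalk, had 605, 549.7, 572, 559 and 519 CPM in WT-8 and 558, 527, 531 and 506 CPM in KO-8. At 16 weeks Atp5c1 had 526.1, 573, 596, 575 and 612 CPM in WT-16 and 561, 447, 380.2, 467 and 463 CPM in KO-16. Again 4 KO-16 libraries were below all WT-16 libraries and replicate 1 was within their range, with a log2 fold change equal to -0.31 (adjusted p = 0.131, SE 0.12). Without replicate 1 it was -0.39 (adjusted p = 0.0406). Atp5c1 was called lower in 4 of the 27 fits at 16 weeks. Atp5d, the delta subunit of that stalk, had 198, 194, 178, 205 and 175 CPM in WT-8 and 229, 209, 198 and 210.3 CPM in KO-8. At 16 weeks Atp5d had 97.1, 100.3, 125, 101 and 101 CPM in WT-16 and 141, 174, 125, 140.2 and 75.6 CPM in KO-16. KO-16 replicates 1 to 4 were at or above the highest WT-16 library and replicate 5 was the lowest of all 10. The log2 fold change was 0.16 (adjusted p = 0.11, SE 0.059) at 8 and 0.33 (adjusted p = 0.266, SE 0.18) at 16 weeks, and without KO-16 replicate 5 it was 0.47 (adjusted p = 0.0309). Atp5d was called higher in 1 of the 27 fits at 16 weeks.

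Atp5l, a small subunit of the membrane part involved in dimers of the enzyme, had 19.4, 18.6, 16.6, 16.1 and 16.99 CPM in WT-8 and 13.2, 17.1, 13.1 and 17.4 CPM in KO-8. At 16 weeks Atp5l had 17.7, 21.9, 16.1, 20.3 and 17.02 CPM in WT-16 and 17.1, 6.22, 10.1, 9.04 and 17.1 CPM in KO-16. In KO-16, 3 libraries lay below all WT-16 libraries and replicates 1 and 5 among them, with a log2 fold change equal to -0.66 (adjusted p = 0.125, SE 0.25). It was -0.85 without KO-16 replicate 1 (adjusted p = 0.0342) and -0.81 without replicate 5 (adjusted p = 0.0429). Atp5l was called lower in 5 of the 27 fits at 16 weeks. Atp5g1 was chosen for mention after its values were seen and had 337, 316, 308, 308 and 263 CPM in WT-8 and 321, 341, 301 and 282 CPM in KO-8, with a log2 fold change of 0.03 (adjusted p = 0.836, SE 0.073). At 16 weeks Atp5g1 had 50.6, 69.8, 74.97, 54.96 and 54.5 CPM in WT-16 and 83.6, 150.3, 122, 81.2 and 43.5 CPM in KO-16. Replicates 1 to 4 of KO-16 were above all WT-16 libraries and replicate 5 below them, and the log2 fold change was 0.66 (adjusted p = 0.133, SE 0.26). It was 0.84 without replicate 5 (adjusted p = 0.0201) and 0.14 among libraries with over 20% 18S (adjusted p = 0.84). Atp5g1 was called higher in 3 of the 27 fits at 16 weeks. The other subunits of complex V, Atp5e, Atp5g2, Atp5g3, Atp5j2, Atp5k, Atp5mpl, Atp5o, Atp5s, Atp5f1, Atp5h, Atp5a1 and Atp5b, had log2 fold changes from -0.16 (Atp5s) to 0.02 (Atp5f1) at 8 weeks and from -0.39 (Atp5s) to 0.43 (Atp5mpl) at 16 weeks. Atp5e passed at 8 weeks in 1 of 21 fits, when KO-8 replicate 2 was left out (-0.26, adjusted p = 0.0475).

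**Figure D3:**
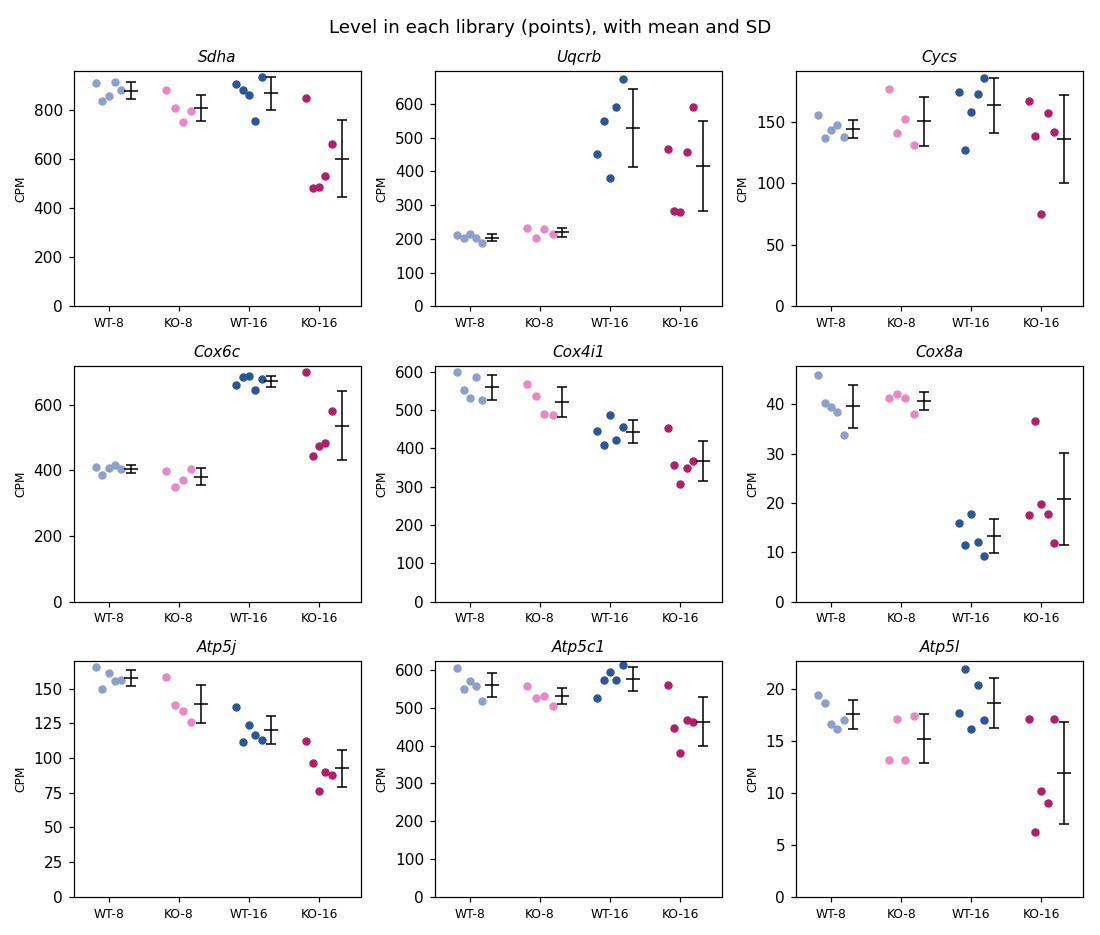
Level in CPM (y axis, from 0) of 9 subunit genes in each library (points) of the 4 groups (x axis), with the mean and SD in black. For Sdha, Cox6c, Cox4i1, Atp5j and Atp5c1 KO-16 replicates 2 to 5 lie below the WT-16 libraries, while KO-16 replicate 1 (leftmost point) lies among them, level with their lowest (Atp5j) or above them (Cox6c).

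The 38 subunits of complex I, for comparison, had 0 called at each time, with medians of -0.00 and -0.05. The difference of the KO effect between 16 and 8 weeks was tested with all 19 libraries: 0 of 46 subunits and 0 of 15503 genes passed. An unadjusted p under 0.05 was found for 4 subunits (Uqcrc2, Sdha, Cox8b and Atp5g1) and for 2000 of the 15503 genes. DESeq2 called 0 subunits and 30 genes, limma-voom 0 and 0, and limma-voom with quality weights 1 subunit lower (1.95% of genes), Sdha (-0.48, adjusted p = 0.0431). Without KO-16 replicate 1, edgeR also called Sdha (-0.56, adjusted p = 0.0286). Sdha was called in 2 of the 33 fits of this difference.

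At 16 weeks the fold changes of the subunits went with the base composition of their transcripts. Across the 46 genes GC content and the 16-week log2 fold change had Pearson r 0.48 and Spearman rho 0.47, as a description of genes measured in the same libraries. At 8 weeks r was -0.02. Over the 11323 genes tested at 16 weeks with a coding transcript, r was 0.25 and rho 0.32. The 23 subunits above the median GC of 50.5% had a median of 0.09 at 16 weeks, and the 23 at or below it -0.13. Among libraries with over 20% 18S, r was 0.18 and rho 0.035, and in the fit with that share as a term 0.41 and 0.40. In those high-18S libraries Cox4i2, Cyc1, Uqcr11 and Cox6a1, all above 0 over the 10 libraries, were at -0.38, -0.17, -0.13 and -0.11. The libraries that were highest or lowest for most subunits are given here with their 18S shares. In KO-16, replicate 2 (1.71% 18S) was the highest library for 20 of the 46 subunits and replicate 1 (12.7%) for 19. Replicate 5 (26.1%) was the lowest for 27 and replicate 3 (5.66%) for 14, while replicate 4, with the highest share (30.0%), was the lowest for 1. In WT-16, replicate 3 (6.88%), which also held adipocyte transcripts, was the highest for 32, and replicate 1 (39.1%) the lowest for 21. Atrial transcripts were not confined to that replicate 3, where Myl7 had 87.8 CPM. Myl7 had 34.2, 48.1 and 13.6 CPM in KO-16 replicates 1, 4 and 5 and 15.7 CPM in WT-16 replicate 4. In the other 16-week libraries it had at most 2.53 CPM. The part of these in the subunit values was not tested.

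**Figure D4:**
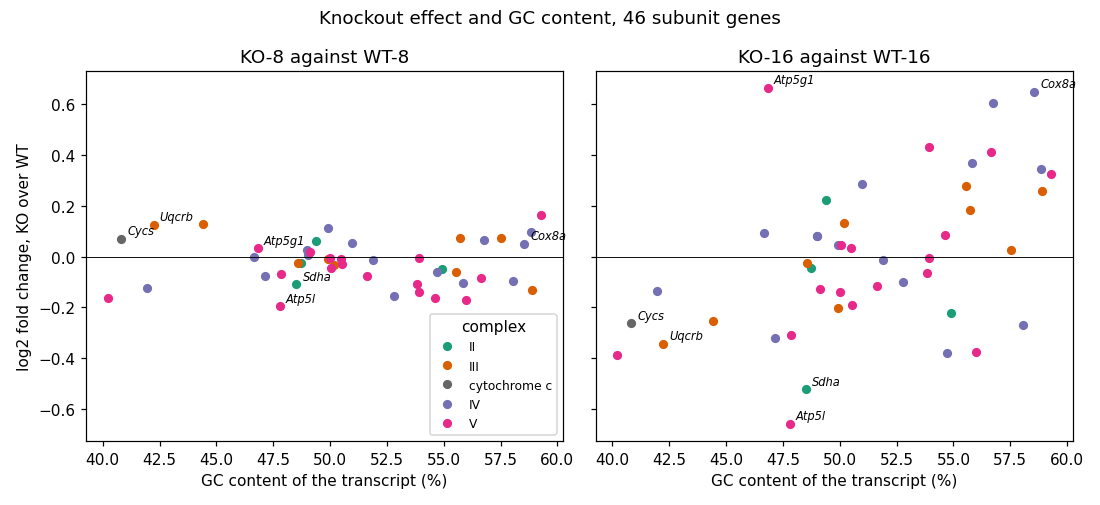
GC content of the transcript in percent (x axis) against log2 fold change of KO over WT (y axis) for the 46 subunit genes, coloured by complex, at 8 weeks (left) and 16 weeks (right). The 16-week points rise with GC content (r 0.48) and the 8-week points do not (r -0.02).

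Most subunits had a smaller mean in WT-16 than in WT-8. The WT-16 to WT-8 ratio of mean CPM had a median of 0.575 over the 46 subunits, against 0.994 over all 15503 genes, with 38 below 1 and 8 above. It was below 0.5 for 37.0% of subunits and for 9.62% of all genes. Atp5g1 (0.199) and Cox8b (0.200) had the lowest ratios, and Uqcrb (2.61), Cox6c (1.66) and Cox7a2l (1.61) the highest. Across the 46 subunits the log2 of these wild-type ratios also went with GC content, with r -0.52 and rho -0.52. Time after induction, sequencing run and 18S share cannot be told apart in these ratios, and they were not tested.

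Assembly factors and regulators of the same complexes were read beside the subunits. Of 38 assembly factors tested at 8 weeks, 2 rose (4.3% of all genes were called higher) and 0 fell. Cox19, a copper-handling factor for complex IV, had 13.7, 14.2, 15.01, 14.04 and 13.2 CPM in WT-8 and 16.5, 18.1, 20.3 and 17.8 CPM in KO-8, without overlap and with a log2 fold change equal to 0.38 (adjusted p = 0.00466, SE 0.071). Uqcc3, which helps assemble complex III, had 12.1, 11.2, 10.8, 11.7 and 10.4 CPM in WT-8 and 15.2, 13.3, 15.4 and 13.04 CPM in KO-8, again without overlap, 0.35 (adjusted p = 0.0103, SE 0.074). At 16 weeks 0 of 37 passed (Cox19 0.79 (adjusted p = 0.0832, SE 0.25), Uqcc3 0.61 (adjusted p = 0.0884, SE 0.20)), and the complex III factor Lyrm7 was at -0.71 (adjusted p = 0.062, SE 0.20). Of 12 regulators, 1 rose and 1 fell at 8 weeks (3.91% of all genes were called lower). Tfam, which packages and transcribes mitochondrial DNA, had 22.2, 21.7, 22.4, 20.3 and 21.3 CPM in WT-8 and 27.3, 25.2, 26.2 and 22.9 CPM in KO-8, 0.24 (adjusted p = 0.0243, SE 0.061). Ppargc1a, the coactivator PGC-1 alpha that drives respiratory chain genes, had 176, 151, 142, 189 and 139 CPM in WT-8 and 118, 131, 97.3 and 141 CPM in KO-8, -0.38 (adjusted p = 0.0411, SE 0.11). At 16 weeks Ppargc1a had 181, 283, 194, 241 and 499 CPM in WT-16 and 283, 80.7, 82.4, 108 and 192 CPM in KO-16, -0.90 (adjusted p = 0.145, SE 0.36), and 0 of 12 regulators passed. None of the mitochondrially encoded partners passed at either time. Of these, mt-Co2, mt-Co3, mt-Atp6 and mt-Atp8 kept few counts, where read pairs that map to several places are not counted. With far more counts, mt-Cytb, of complex III, was at -0.84 (adjusted p = 0.187, SE 0.38) at 16 weeks.

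Some markers of other cells moved with the groups. Of 8 fibroblast markers 5 rose at 8 weeks and 4 of 7 tested at 16 weeks, and their sum was 506 to 551 CPM in WT-8, 597 to 920.2 in KO-8. At 16 weeks the sum was 371 to 483 CPM for WT and 490.0 to 1331 CPM for KO. Of 6 endothelial markers 3 rose at 8 weeks and 1 at 16 weeks, and of 6 smooth muscle and pericyte markers likewise 3 and 1. Of 5 erythroid markers 1 fell at 8 weeks (Hbb-bt), with a median of -0.71, and at 16 weeks 0 of 4 tested passed, with a median of 1.84 and a sum of 53.1 to 132 CPM in WT-16 and 47.4 to 1123 CPM in KO-16 (highest in replicate 3). Of 2 brown adipocyte markers tested at 16 weeks 1 rose (Dio2), and the other, Cidea, was at -0.08. Ucp1 and Elovl3 had 0 CPM in every KO-16 library. Macrophage and atrial markers gave 0 of 6 and 0 of 3 past the threshold at 16 weeks. Over all genes tested, 4.3% were called higher and 3.91% lower at 8 weeks, and 237 of 12597 higher at 16 weeks. The 4 adipocyte markers and the skeletal muscle markers were too low to be tested. The 8 cardiomyocyte markers summed to 41687 to 49374 CPM in WT-16, against 26092 to 44615 CPM in KO-16 libraries. Myh6 made up a large part of these sums, with 21842 to 28779 CPM in WT-16 and 11339 to 23742 CPM in KO-16. Of the 8 markers 3 had a log2 fold change above 0 at 16 weeks and 5 below, and 0 passed. At 8 weeks the sums were 38449 to 41408 and 34411 to 40381, with Actn2 higher (0.29 (adjusted p = 0.0137, SE 0.064)) and Ryr2 lower (-0.32 (adjusted p = 0.00989, SE 0.066)). The part of these cell types in the subunit values was not tested.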

How the data were processed

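The authors deposited gene counts, in read pairs. Per the file headers they came from featureCounts 1.6.3 (paired, reverse-stranded, largest overlap, multi-mapping pairs left out) with Ensembl 96, on GRCm38 per the submitters' processing notes. The 2 files of each 16-week sample were summed (29 files, 19 samples). All 55536 genes matched GENCODE M21, from which symbols, coordinates and the GC content of one transcript a gene were taken.

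Counts were tested with edgeR 4.0.16 in R 4.3.3 (quasi-likelihood, TMM, filterByExpr, Benjamini-Hochberg, threshold 0.05), fitted to the compared groups alone, because the common coefficient of variation was 0.228 at 16 weeks, 0.093 at 8 weeks and 0.171 over all libraries. The difference between times used all libraries. Isoform ratios were tested by exact permutation over libraries. Printed CPM use TMM factors over all 19 libraries. SEs are the absolute log2 fold change over the root of F. Alternatives included DESeq2 1.42.0 and limma 3.58.1 (voom). The scripts were tested on simulated data. Tables and figures used Python 3.11.15.

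The members, lists and tests were chosen with earlier results of these data known. Members given in every library are the isoform pairs, complex II, Cyc1, Cycs and, at each time, the 3 smallest-p members of complexes III, IV and V. Up to 2 genes per other list were named by smallest p.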

Additional observations from a re-analysis of the deposited data

Results flagged for a closer look

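In 7 of the 116 groups of 4 or 5 libraries that were examined, the highest or the lowest library stood far from the others by Dixon's test, which chance does in about 1 in 20 groups. In WT-16, replicate 3, the library with the lowest 18S share of that group, was the highest for 3 subunits. It had 124.6 CPM of Atp5d (97.1 to 101.4 in the other 4), 81.9 CPM of Cox7a2 (60.7 to 65.8) and 43.1 CPM of Uqcr10 (32.4 to 35.2). WT-16 replicate 1, with the highest 18S share, had the lowest Cox6a1 level, 8.35 CPM against 10.8 to 11.04 CPM. In KO-8, replicate 3 had 23.0 CPM of Cox6a1 (26.1 to 26.6 in the other 3). KO-8 replicate 4 was lowest for Cox7b, 214.5 CPM against 252.9 to 257.1 CPM, and for Uqcr10, 66.8 CPM against 80.3 to 81.1 CPM.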

How the results depend on the processing

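No paired analysis was possible because the replicate numbers follow accession order and pair no samples. Over the log2 fold changes of the subunits given in every library and their alternatives, 1087 values stayed on the same side of the threshold with the same direction, 34 passed it where the reported fit did not, and 27, none past the threshold in either fit, had the other sign. At 8 weeks a fit with the 18S share as a term gave 0.024 for Cox7a2, 0.013 for Sdhb and 0.0069 for Uqcr10. With a library left out the 8-week values ran from -0.052 to 0.025 for Cox7a2, -0.087 to 0.015 for Sdhb, -0.083 to 0.0053 for Sdhc and -0.086 to 0.0088 for Uqcr10 (above 0 without KO-8 replicate 4, and for Cox7a2 and Sdhc also without WT-8 replicate 1), from -0.0010 to 0.11 for Cox8a (below 0 without WT-8 replicate 5) and from -0.014 to 0.13 for Cycs (below 0 without KO-8 replicate 1). At 16 weeks they ran from -0.24 to 0.018 for Cox6a2 (above 0 without KO-16 replicate 5), -0.10 to 0.075 for Cox7a2 (above 0 without WT-16 replicate 3 or KO-16 replicate 5) and -0.17 to 0.013 for Sdhc (above 0 without WT-16 replicate 3 or KO-16 replicate 3, 4 or 5). Cox7a2 was also 0.0090 with upper-quartile factors, 0.011 with no filter, 0.0015 in the later files alone, 0.019 with quality weights and 0.0097 with those over all 19 libraries. Among libraries with over 20% 18S alone (added after the data were seen) Cox4i2 was at -0.38, Cyc1 at -0.17, Uqcr11 at -0.13, Cox6a1 at -0.11 and the Cox4i2 to Cox4i1 ratio at -0.072. The cause was not tested. Genes called at 8 weeks numbered 1245, and 31 with all 19 libraries in one fit. Leaving out a library gave 872 to 1163 genes, 0 subunits higher and 0 to 1 lower. Genes called at 16 weeks numbered 356. They were 1034 with no filter, 1166 with DESeq2, 2514 with limma-voom and quality weights, 3181 with all 19 libraries in one fit, 3022 with those and quality weights (added after the data were seen), 28 in a fit with the 18S share as a term and 10 when both male libraries were left out. Subunits called higher numbered 0, and 2 in both fits to all 19 libraries. Subunits called lower numbered 0, but 2 with DESeq2, 7 with quality weights, 6 with all 19 libraries and 7 with all 19 and quality weights. Leaving out a library gave 29 to 1856 genes, 0 to 3 subunits higher and 0 to 5 lower. For the difference between times, 0 genes passed, but 43 with no filter, 30 with DESeq2 and 527 with quality weights, where 1 subunit was lower. Leaving out a library gave 0 to 613 genes and 0 to 1 subunit lower. The 8 isoform ratio tests stayed above the threshold in every alternative run. With a library left out, the smallest possible permutation p was 0.0159 at 16 weeks and 0.0286 or 0.0357 at 8 weeks. Cox6a2 to Cox6a1 reached 0.0159 at 16 weeks without KO-16 replicate 1 (exact permutation), and its adjusted p was 0.0635. A single pair could not pass in those runs, so they do not show that the result is stable. Cox4i2 to Cox4i1 gave no value in the earlier 16-week files alone, where a library had 0 Cox4i2 counts. The 16-week libraries hold as few as 8632127 pairs, of which up to 39.1% were 18S, so that counts of the low subunits (Cox4i2, Atp5g2 and Cox6a1) are few there.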
